A study of Mus musculus with 6 samples.

Results

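The Nogo receptor system was described here through 8 genes: the ligand genes Rtn4 and Omg, the ligand-binding receptor genes Rtn4r, Rtn4rl2 and Rtn4rl1, and the co-receptor genes Lingo1, Ngfr and Tnfrsf19. They were picked out by symbol in GENCODE M21, and all 8 were found among the 54532 gene identifiers of the deposited table. The study concerned ANGPTL2, a secreted glycoprotein, in relation to the myelin protein MAG, which is itself a further ligand of the Nogo receptors. Brains of mice at postnatal day 15 were used for RNA-seq, with 3 Angptl2-/- and 3 Angptl2+/+ libraries. The Angptl2-/- line, on a C57BL/6 background, came from Angptl2 fl/fl mice with loxP sites around exon 2, recombined in the male germ line by stra8-cre before crossing to wild-type females. The libraries were made from total RNA of brain tissue, in which cell types were mixed. The sources do not give the sex of the animals or the way the brains were dissected, and do not say that each library came from a separate mouse, so p-values measure the spread between these samples.

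Nogo, oligodendrocyte-myelin glycoprotein and MAG are 3 structurally unrelated proteins on the axon-facing side of myelin that halt growing axons. They bind the same leucine-rich repeat receptor on the axon, which is held to the membrane by a lipid anchor and has no part inside the cell. A signal therefore needs a transmembrane partner, either the p75 neurotrophin receptor or TROY together with LINGO-1, and it reaches the cytoskeleton through the GTPase RhoA and its kinase. LINGO-1 is also known as a brake on the maturation of oligodendrocytes.

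The values are FPKM, fragments per kilobase of gene relative to the depth of the library. Multiplied by exon length and depth, 96.6 to 96.8% of the values above 0 came within 0.05 of whole fragments, and the libraries held 17127263 to 18928924 fragments assigned to genes. Mitochondrially encoded genes made up 4.13 to 5.75% of the fragments of Angptl2-/- libraries and 3.31 to 4.56% of those of Angptl2+/+ libraries. All 12 neuron, 10 astrocyte and 16 myelin markers examined passed the filter used for testing. Angptl2 itself was low, at 0.166, 0.320 and 0.126 FPKM in Angptl2-/- against 0.660, 0.958 and 0.291 FPKM in Angptl2+/+ libraries 1 to 3. The ranges overlapped (exact permutation test, p = 0.2), and FPKM over the whole gene cannot show the loss of exon 2 alone. Xist, the RNA of the inactive X chromosome, was at 42.3 FPKM in Angptl2-/- library 2 and at 27.4 and 27.9 FPKM in Angptl2+/+ libraries 1 and 2, and the other libraries had the Y-linked Ddx3y instead. Sex was therefore unequal over the genotypes. Choroid plexus and striatal markers also differed between libraries. Striatal sums were 155 to 292 FPKM in Angptl2-/- and 71.3 to 163 FPKM in Angptl2+/+ libraries. Choroid plexus sums were 105 to 940 FPKM in Angptl2-/- and 1.69 to 8.11 FPKM in Angptl2+/+ libraries. Most of this sum in Angptl2-/- libraries 1 to 3 was Ttr, at 141.4, 915.8 and 99.6 FPKM. Ttr was at 0.5799 to 4.294 FPKM in Angptl2+/+ libraries. Clic6, the next in abundance, was at 1.715 to 5.495 FPKM in Angptl2-/- and 0.1053 to 1.467 FPKM in Angptl2+/+ libraries. All 7 tested choroid plexus markers had a positive fold change, but Otx2 was highest in Angptl2+/+ library 1, at 1.792 FPKM. Cerebellar markers set Angptl2+/+ library 1 apart. Their sums were 69.6, 66.2 and 73.3 FPKM in Angptl2-/- and 204, 74.4 and 87.3 FPKM in Angptl2+/+ libraries 1 to 3. These sums mix genes of unlike course. Cbln3 was at 10.86 FPKM in Angptl2+/+ library 1 and at 0.1157 to 0.276 FPKM in the other libraries. Gabra6 was at 10.51 FPKM there and at 0 to 0.1666 FPKM in the others. Calb1 was at 27.29 FPKM there and at 20.23 to 34.82 FPKM in the others. Otx2, Cbln3, Gabra6 and Calb1 were singled out here after their values were seen.

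Promoter sequences are shown for Rtn4r, Rtn4rl2 and Lingo1, which with Rtn4rl1 shared their highest and lowest libraries, and for the ligand Rtn4, whose extremes lay elsewhere. Each is the 250 bases before a RefSeq transcription start (GRCm38.p6), read 5′ to 3′ on the strand of the gene, and 6 of the 8 members had at least 1 window (not Omg and Rtn4rl1). Capitals mark GC boxes, found by a search for GGGCGG on both strands (CCGCCC is its reverse complement), where neighbouring boxes may share bases.
Rtn4r, chr16:18127392-18127641, plus strand: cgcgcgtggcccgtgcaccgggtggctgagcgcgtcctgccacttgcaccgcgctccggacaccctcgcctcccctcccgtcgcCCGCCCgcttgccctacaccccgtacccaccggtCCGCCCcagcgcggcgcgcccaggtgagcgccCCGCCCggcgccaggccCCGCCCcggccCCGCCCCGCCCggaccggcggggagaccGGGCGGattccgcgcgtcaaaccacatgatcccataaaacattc
Rtn4rl2, chr2:84886693-84886942, minus strand: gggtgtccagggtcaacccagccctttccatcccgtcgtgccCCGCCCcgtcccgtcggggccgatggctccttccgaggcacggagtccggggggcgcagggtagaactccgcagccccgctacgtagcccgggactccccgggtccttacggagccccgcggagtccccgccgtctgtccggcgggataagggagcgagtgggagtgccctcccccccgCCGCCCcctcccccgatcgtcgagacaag
Lingo1, chr9:56796311-56796560, minus strand: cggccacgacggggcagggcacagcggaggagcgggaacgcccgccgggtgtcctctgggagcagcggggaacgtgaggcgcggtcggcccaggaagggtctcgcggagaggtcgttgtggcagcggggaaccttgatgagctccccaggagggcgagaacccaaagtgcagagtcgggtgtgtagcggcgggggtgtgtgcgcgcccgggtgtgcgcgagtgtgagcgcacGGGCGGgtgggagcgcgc
Rtn4, chr11:29692648-29692897, plus strand: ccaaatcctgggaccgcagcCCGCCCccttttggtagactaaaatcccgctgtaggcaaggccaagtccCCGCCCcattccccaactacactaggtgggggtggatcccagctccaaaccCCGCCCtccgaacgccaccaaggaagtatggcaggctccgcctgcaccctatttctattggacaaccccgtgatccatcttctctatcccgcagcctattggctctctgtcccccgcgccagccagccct
The Rtn4r window had a GC content of 77.2%, 38 CpG dinucleotides and 7 GC boxes. Rtn4rl2 had a GC content of 73.6% with 29 CpG and 2 boxes. Lingo1 had 72.8% with 31 CpG and 1 box in the window printed, and 70.4% with 22 CpG and 1 box in another. The first of the 3 Rtn4 windows, printed here, had a GC content of 61.2%, 12 CpG and 3 boxes, the next was close to Rtn4r in composition (76.8%, 31 CpG, 1 box), and the last had 39.2%, 1 CpG and no box. Over 32851 mouse windows of the same length the median was 52.4% GC and 6 CpG, and 32.7% held at least 1 GC box. The Ngfr window held 4 boxes, and Tnfrsf19 had 1 window without a box at 50.0% GC and another with 3 boxes at 59.2% GC.

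Across all 14862 genes tested with limma on log2(FPKM + 0.1), none passed a Benjamini-Hochberg adjusted p of 0.05 in either direction (0.0% higher and 0.0% lower), and the smallest adjusted p was 0.273. Without adjustment, the count at p under 0.05 was 1054 (7.09%) in the direction of higher and 1355 (9.12%) in that of lower levels in Angptl2-/- brains. The voom method of limma, run on the recovered fragments, also called 0 genes, with unadjusted counts of 1150 and 1229. All 8 members were tested and none passed. Rtn4r and Lingo1 had an unadjusted p under 0.05, both lower, which makes 2 of 8 members beside the background of 9.12%. Rtn4r was the only member whose genotypes did not overlap, with every Angptl2-/- library below every Angptl2+/+ library, a pattern that 11.8% of all tested genes showed (10.7% showed the opposite one). In RNA of whole tissue, fewer cells of a type and less RNA per cell cannot be told apart.

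**Figure D1:**
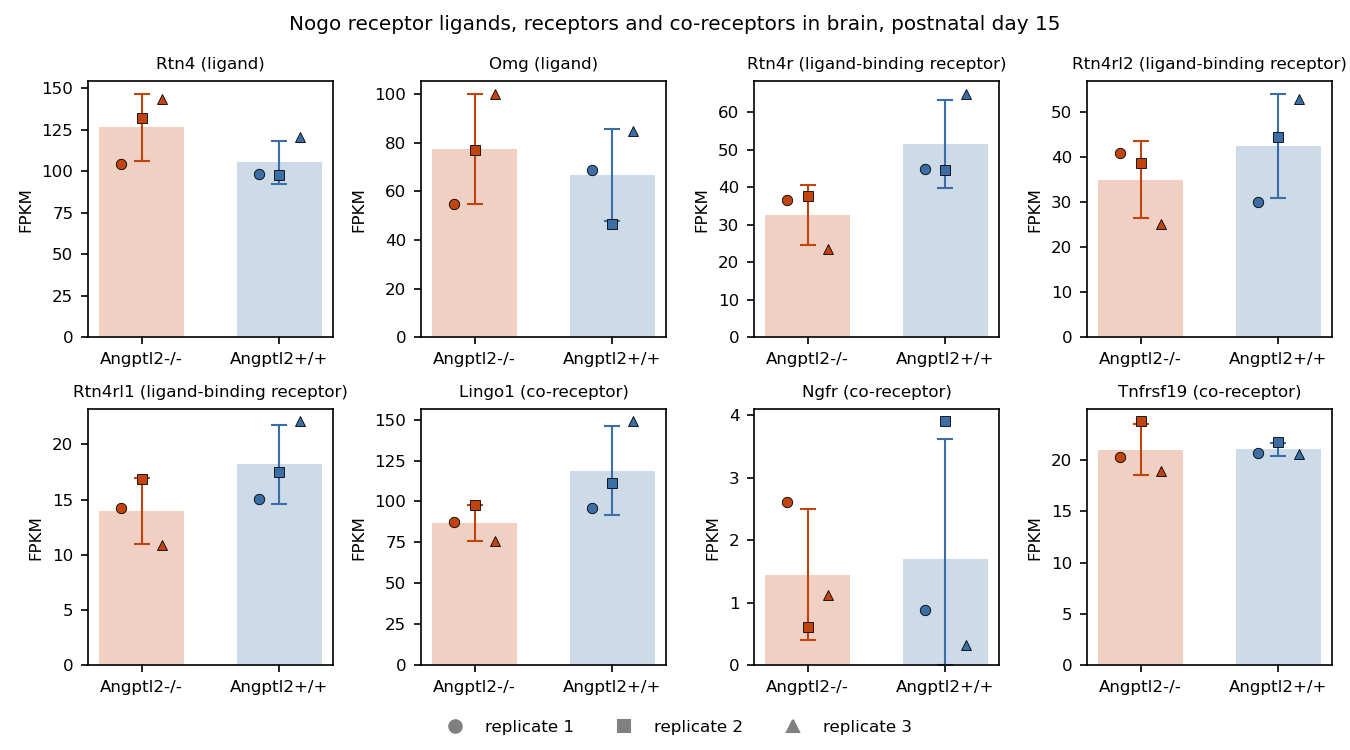
FPKM of the 8 members in 3 Angptl2-/- and 3 Angptl2+/+ brain libraries, with 1 panel per gene and its own axis. Bars are means, error bars are the SD (n = 3 each, with the lower end for Ngfr in Angptl2+/+ falling below 0), and circles, squares and triangles are replicates 1, 2 and 3. Only in the Rtn4r panel do all Angptl2-/- points, 23.5 to 37.6 FPKM, lie below all Angptl2+/+ points, 44.5 to 65.0 FPKM.

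Rtn4 encodes the Nogo proteins, made from several promoters and splice forms of 1 gene. Nogo-A, the long form, is found in oligodendrocytes and in many neurons. Rtn4 (ENSMUSG00000020458, chr11:29692947-29744331, plus strand, GRCm38) has 10 annotated transcripts, which a gene-level FPKM does not separate. Its level was 104, 132 and 144 FPKM in Angptl2-/- libraries 1, 2 and 3, against 98.5, 97.5 and 120 FPKM in Angptl2+/+ libraries 1, 2 and 3. Angptl2-/- library 3 was the highest of the 6, and Angptl2-/- library 1 fell within the Angptl2+/+ range. The mean was 127 ± 20.2 FPKM in Angptl2-/- and 105 ± 12.9 FPKM in Angptl2+/+ (SD, n = 3 each), and the log2 fold change was 0.26 (SE 0.15, limma adjusted p = 0.415). With 12104 to 16440 fragments a library, counting error was under 1% of the level (0.780 to 0.909%), well below the spread between samples.

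Omg encodes oligodendrocyte-myelin glycoprotein, a lipid-anchored protein of oligodendrocytes that neurons also make. The gene (ENSMUSG00000049612, chr11:79500982-79504084, minus strand) lies inside Nf1 on the opposite strand. Since the strand setting of the counting is not known, reads of Nf1 (mean 8.33 FPKM) and Omg could not be told apart in any shared exon. Only gene spans were compared, so overlap of exons was not examined. The spans of Rtn4 and Eml6 (mean 3.59 FPKM) and of Tnfrsf19 and Gm41168 (mean 0.0693 FPKM) also overlap on opposite strands. Omg was at 54.9, 76.9 and 100.2 FPKM in Angptl2-/- and at 68.7, 46.7 and 84.7 FPKM in Angptl2+/+ libraries 1 to 3. The genotypes interleaved, with the highest value in Angptl2-/- and the lowest in Angptl2+/+ and a spread of 29.3% of the mean in Angptl2-/- and 28.5% in Angptl2+/+. The log2 fold change of 0.21 was smaller than its standard error of 0.28 (limma adjusted p = 0.71, exact permutation p = 0.6).

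Omg was set against Mag, the third ligand gene, which encodes an adhesion protein of the innermost myelin wrap. Mag was at 29.6, 31.9 and 37.5 FPKM in Angptl2-/- against 92.8, 54.5 and 38.6 FPKM in Angptl2+/+ libraries, a log2 fold change of −0.82 (SE 0.29, limma adjusted p = 0.278). The Mag ranges did not overlap, with Angptl2-/- lower, a pattern that 11.8% of all tested genes showed. Angptl2-/- library 3 and Angptl2+/+ library 3 lay close together. All 16 genes of the myelin marker list had a negative fold change. At an unadjusted p under 0.05, 3 of the 16 were lower, beside 9.12% of all tested genes. Summed levels were 662, 901 and 1253 FPKM in Angptl2-/- and 2118, 1041 and 1041 FPKM in Angptl2+/+ libraries 1 to 3. The highest myelin and Mag levels were thus in Angptl2+/+ library 1, the library with the highest cerebellar markers, and the part of tissue make-up in them was not tested. The Omg estimate had no stable sign, being −0.02 after GC correction and −0.02 without Angptl2+/+ library 2. Its FPKM was 1.86, 2.41 and 2.68 times that of Mag in Angptl2-/- and 0.740, 0.858 and 2.20 times in Angptl2+/+ libraries. These ratios overlapped between genotypes and were not tested. The ratio of Rtn4 to Omg was 1.90, 1.72 and 1.43 in Angptl2-/- and 1.43, 2.09 and 1.42 in Angptl2+/+ libraries.

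Rtn4r encodes the Nogo receptor NgR1, the receptor on axons that all 3 myelin ligands share. The gene (ENSMUSG00000043811, chr16:18127642-18152408, plus strand) begins at the end of the GC-rich promoter window shown above. Its level was 36.7, 37.6 and 23.5 FPKM in Angptl2-/- libraries 1, 2 and 3, against 44.8, 44.5 and 65.0 FPKM in Angptl2+/+ libraries 1, 2 and 3. The libraries numbered 3 lay furthest out, on opposite sides, while the other 4 lay within 36.7 to 44.8 FPKM. The mean was 32.6 ± 7.89 FPKM in Angptl2-/- brains and 51.4 ± 11.7 FPKM in Angptl2+/+ brains (SD, n = 3 each), so that Angptl2-/- brains held 63.4% of the Angptl2+/+ level. The log2 fold change was −0.66 (SE 0.23, 95% interval −1.20 to −0.13), with an unadjusted p of 0.0209 and an adjusted p of 0.274 by limma. The exact permutation test gave p = 0.1, the smallest that 3 against 3 libraries allow.

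Counting error was smaller than the Rtn4r difference: 746 to 2137 fragments a library gave 95% Poisson intervals of 34.7 to 38.7, 35.6 to 39.8 and 21.8 to 25.2 FPKM in Angptl2-/- libraries and of 42.6 to 47.1, 42.3 to 46.8 and 62.2 to 67.8 FPKM in Angptl2+/+ libraries. These intervals cover counting error only. Among the libraries with Xist, Rtn4r was 37.6 FPKM in the Angptl2-/- library and 44.8 and 44.5 FPKM in the Angptl2+/+ libraries. Among those with Ddx3y it was 36.7 and 23.5 FPKM in Angptl2-/- and 65.0 FPKM in Angptl2+/+ libraries, so the order of the genotypes was the same in both sets, each too small for a test. With a term for the Xist level, the log2 fold change was −0.70 (SE 0.26, limma adjusted p = 0.466).

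Rtn4rl2 encodes NgR2, a relative of the Nogo receptor that binds MAG. The gene (ENSMUSG00000050896, chr2:84871924-84886710, minus strand) was at 40.9, 38.7 and 25.2 FPKM in Angptl2-/- and at 29.9, 44.4 and 52.8 FPKM in Angptl2+/+ libraries 1 to 3. Of the 3 Angptl2-/- values, 2 lay inside the Angptl2+/+ range. The log2 fold change was −0.27 with a standard error of 0.26 (limma adjusted p = 0.602).

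Rtn4rl1 encodes NgR3, which with NgR1 binds the sugar chains of chondroitin sulphate proteoglycans. The gene (ENSMUSG00000045287, chr11:75193783-75267769, plus strand) was the lowest of the 3 receptors, at 14.2, 16.9 and 10.9 FPKM in Angptl2-/- and 15.0, 17.5 and 22.1 FPKM in Angptl2+/+ libraries 1 to 3. Angptl2-/- library 2 lay above Angptl2+/+ library 1, so the groups overlapped. The log2 fold change was −0.38 (SE 0.20, limma adjusted p = 0.375).

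The make-up of the receptor pool varied less than its size. Rtn4r, Rtn4rl2 and Rtn4rl1 summed to 91.8, 93.2 and 59.6 FPKM in Angptl2-/- and to 89.7, 106 and 140 FPKM in Angptl2+/+ libraries 1 to 3. Rtn4r made up 39.9, 40.4 and 39.5% of that sum in Angptl2-/- libraries, against 50.0, 41.8 and 46.4% in Angptl2+/+ libraries, so its share was lower in every Angptl2-/- library. Rtn4rl2 took 44.6, 41.5 and 42.3% in Angptl2-/- and 33.3, 41.7 and 37.8% in Angptl2+/+ libraries, and Rtn4rl1 took 15.5 to 18.3% in Angptl2-/- and 15.8 to 16.7% in Angptl2+/+ libraries. As a ratio, Rtn4r to Rtn4rl2 was 0.895, 0.972 and 0.934 in Angptl2-/- and 1.5, 1.003 and 1.23 in Angptl2+/+ libraries. These ranges did not overlap, although their nearest values, Angptl2-/- library 2 and Angptl2+/+ library 2, differed by no more than counting error, which was 2.55 to 3.19% of the level for each gene. The Rtn4r share and this ratio draw on the same Rtn4r values, so they are not separate results. Of single tested genes, 11.8% lay wholly lower and 10.7% wholly higher in Angptl2-/- libraries. How often ratios of other gene pairs separate the genotypes was not examined. The ratio of Rtn4 to Rtn4r, ligand to receptor, was 2.85, 3.51 and 6.11 in Angptl2-/- and 2.20, 2.19 and 1.85 in Angptl2+/+ libraries, with a difference of 0.92 on the log2 scale and a pooled SD of 0.41. It joins a gene of 46.0% GC to one of 62.8% GC, and no test was run on any ratio.

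Lingo1 encodes LINGO-1, the transmembrane partner that completes the receptor complex. The gene (ENSMUSG00000049556, chr9:56618475-56796468, minus strand) was at 87.4, 97.7 and 75.7 FPKM in Angptl2-/- and at 95.8, 111 and 149 FPKM in Angptl2+/+ libraries 1 to 3. The groups overlapped by 1 pair, Angptl2-/- library 2 lying just above Angptl2+/+ library 1. The mean was 86.9 ± 11.03 FPKM in Angptl2-/- and 119 ± 27.3 FPKM in Angptl2+/+ brains (SD, n = 3 each). Its log2 fold change of −0.43 (SE 0.18) had an unadjusted limma p of 0.0465 and an adjusted p of 0.303. Per unit of Lingo1 there were 0.419, 0.385 and 0.311 units of Rtn4r by FPKM in Angptl2-/- and 0.468, 0.400 and 0.436 in Angptl2+/+ libraries, ranges that overlapped.

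**Figure D2:**
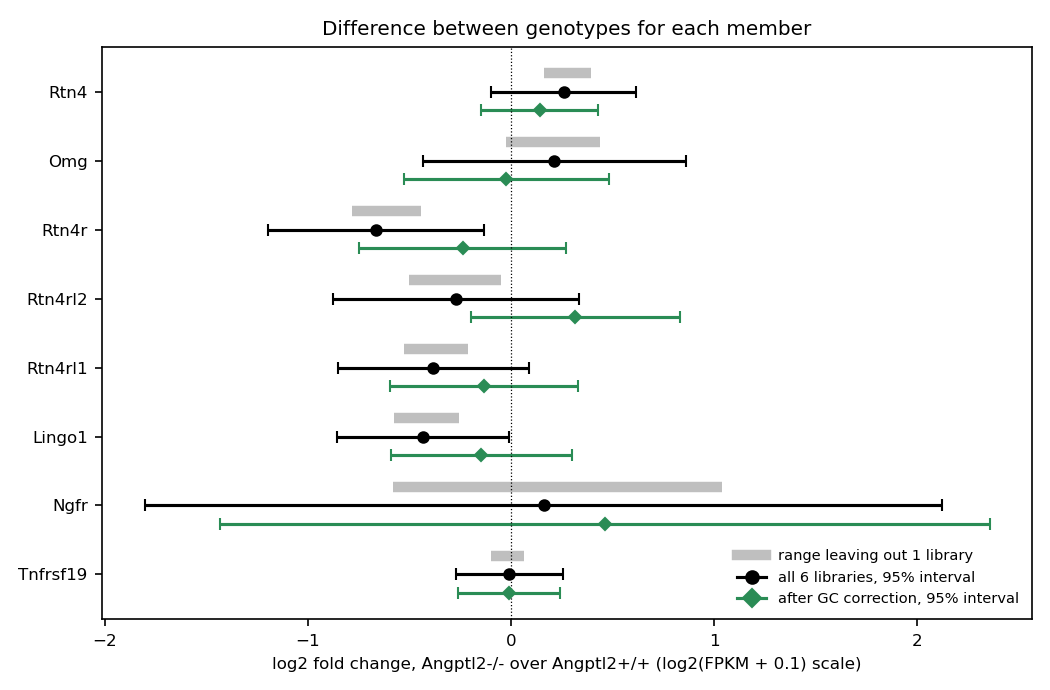
Log2 fold change, Angptl2-/- over Angptl2+/+ on the log2(FPKM + 0.1) scale, for each member. Black circles and lines are the estimate and 95% interval from all 6 libraries, green diamonds and lines the same after correction of each library for GC content, and grey bars the range of estimates when 1 library was left out. The Rtn4r estimate is −0.24 with the correction and −0.66 without it, and that of Rtn4rl2 is 0.32 with it and −0.27 without.

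Ngfr encodes the p75 neurotrophin receptor, which in the adult forebrain marks the cholinergic neurons of the basal forebrain. The gene (ENSMUSG00000000120, chr11:95568818-95587735, minus strand) was by far the lowest and the most uneven member. It was at 2.62, 0.602 and 1.12 FPKM in Angptl2-/- and at 0.878, 3.904 and 0.325 FPKM in Angptl2+/+ libraries 1 to 3. Both extremes were Angptl2+/+ libraries, 12.02-fold apart, so the genotypes overlapped completely. These values rest on 173, 35 and 63 fragments in Angptl2-/- and 54, 239 and 19 fragments in Angptl2+/+ libraries, and the 95% Poisson intervals of the extremes, 3.42 to 4.43 FPKM and 0.196 to 0.507 FPKM, were far apart. The log2 fold change was 0.16 with a standard error of 0.84 (95% interval −1.80 to 2.12, limma adjusted p = 0.94), and the interval holds large differences in either direction.

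Genes of cholinergic neurons ran alongside Ngfr from library to library. Lhx8, a transcription factor of forebrain cholinergic neurons, was at 2.16, 0.445 and 1.86 FPKM in Angptl2-/- and at 0, 2.29 and 0.0698 FPKM in Angptl2+/+ libraries. Chat, the acetylcholine synthesis enzyme, was at 1.30, 0.554 and 1.35 FPKM in Angptl2-/- and at 0.536, 1.47 and 0.125 FPKM in Angptl2+/+ libraries. The libraries low in Ngfr were low in these genes, and Angptl2-/- library 3 was high in them with a middling Ngfr. Slc18a3 and Slc5a7, the acetylcholine and choline transporters and the most abundant genes of the list, were also lowest in Angptl2+/+ library 3, at 0.464 and 0.313 FPKM. The summed level of the 7 cholinergic markers was 12.5, 4.67 and 11.9 FPKM in Angptl2-/- and 3.11, 14.2 and 1.02 FPKM in Angptl2+/+ libraries. All 7 had a positive fold change, and none passed the limma adjusted p. At an unadjusted p under 0.05, 1 of the 7 was higher, beside 7.09% of all tested genes. Chat and Lhx8 were singled out after their values were seen. The part of cholinergic tissue in the Ngfr values was not tested.

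**Figure D3:**
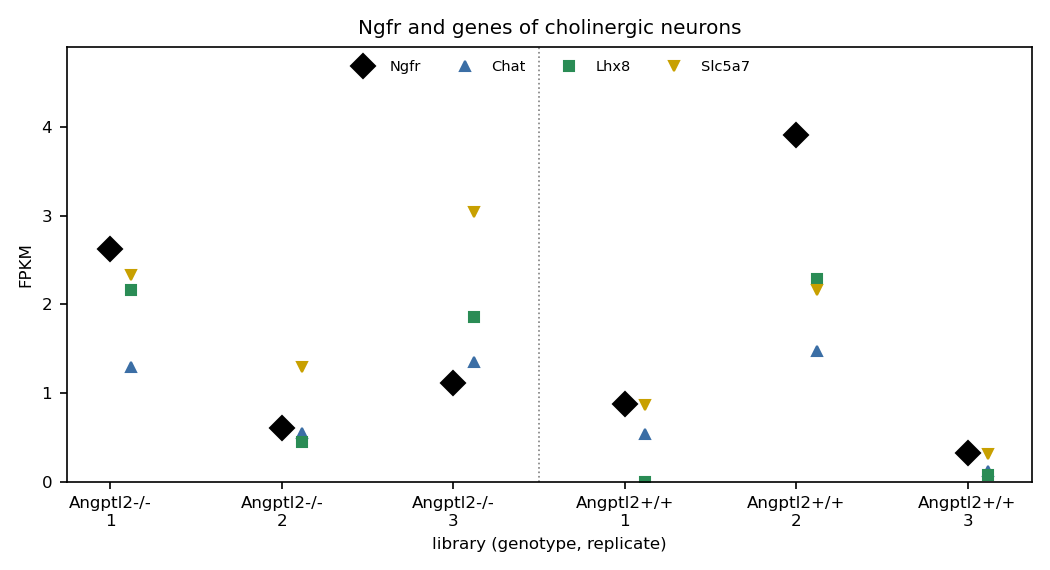
FPKM of Ngfr (black diamonds) and of the cholinergic neuron genes Chat, Lhx8 and Slc5a7 in each of the 3 Angptl2-/- and 3 Angptl2+/+ brain libraries. Angptl2+/+ library 2, with 3.904 FPKM of Ngfr, had 2.29 FPKM of Lhx8, and Angptl2+/+ library 3, with 0.325 FPKM of Ngfr, had 0.0698 FPKM of Lhx8.

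Tnfrsf19 encodes TROY, a receptor of the tumour necrosis factor family that can stand in for p75 in the complex. The gene (ENSMUSG00000060548, chr14:60963875-61046490, minus strand) was the steadiest member, at 20.3, 23.8 and 19.0 FPKM in Angptl2-/- and at 20.7, 21.8 and 20.6 FPKM in Angptl2+/+ libraries 1 to 3. Its highest and lowest libraries, both Angptl2-/-, were only 1.26-fold apart. The mean was 21.03 ± 2.49 FPKM in Angptl2-/- and 21.06 ± 0.675 FPKM in Angptl2+/+ (SD, n = 3 each). The log2 fold change was −0.01 (SE 0.11, 95% interval −0.27 to 0.26, limma adjusted p = 0.979). Ngfr stood at 0.129, 0.0253 and 0.0589 of the Tnfrsf19 level in Angptl2-/- and at 0.0424, 0.179 and 0.0157 in Angptl2+/+ libraries, so TROY transcripts outnumbered p75 transcripts per length in every library.

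Since FPKM is per length, the members can be ordered by level. They differ in GC content (41.7 to 68.5%) and in annotated transcripts (1 to 10), and the part of these in the order was not tested. Rtn4 led with a mean of 116 FPKM over the 6 libraries, followed by Lingo1 at 103, Omg at 72.04, Rtn4r at 42.0, Rtn4rl2 at 38.7, Tnfrsf19 at 21.04, Rtn4rl1 at 16.1 and Ngfr at 1.57 FPKM. Rtn4 stood above 98.3% of the tested genes and Ngfr above 22.0%. Only the steps between Rtn4rl2 and Tnfrsf19 and between Rtn4rl1 and Ngfr separated ranges that did not overlap. Rtn4r was above Rtn4rl2 in the 3 Angptl2+/+ libraries and below it in the 3 Angptl2-/- libraries, by little in library 2 of each. That order restates the ratio of Rtn4r to Rtn4rl2 given above. Omg was above Rtn4r within each of the 6 libraries although their ranges overlapped.

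The 3 receptors and Lingo1 shared their extremes: each was lowest in Angptl2-/- library 3 and highest in Angptl2+/+ library 3. Rtn4 and Omg were highest in Angptl2-/- library 3 and lowest in Angptl2+/+ library 2. The cortical excitatory neuron markers had the extremes of the receptors, with summed levels of 1256, 1523 and 1234 FPKM in Angptl2-/- and 1419, 1642 and 2193 FPKM in Angptl2+/+ libraries 1 to 3. Of the 10 genes of that list, all detected in every library, 8 had a negative fold change, beside 50.6% of all tested genes. At an unadjusted p under 0.05, 2 of the 10 were lower, beside 9.12% of all tested genes. The list had a median of −0.11 on the log2 scale. Its most abundant gene, Nrgn, encoding a calmodulin-binding protein of dendrites, was at 551, 683 and 534 FPKM in Angptl2-/- and 797, 874 and 1123 FPKM in Angptl2+/+ libraries. Camk2a, the next in abundance and a kinase of excitatory synapses, was at 314, 388 and 315 FPKM in Angptl2-/- and 273, 321 and 540 FPKM in Angptl2+/+ libraries, so it shared the highest library but was lowest in Angptl2+/+ library 1. The general neuron list differed less, at 1914 to 2101 FPKM in Angptl2-/- and 1865 to 2298 FPKM in Angptl2+/+ libraries. The part of cortical neurons in the receptor values was not tested.

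**Figure D4:**
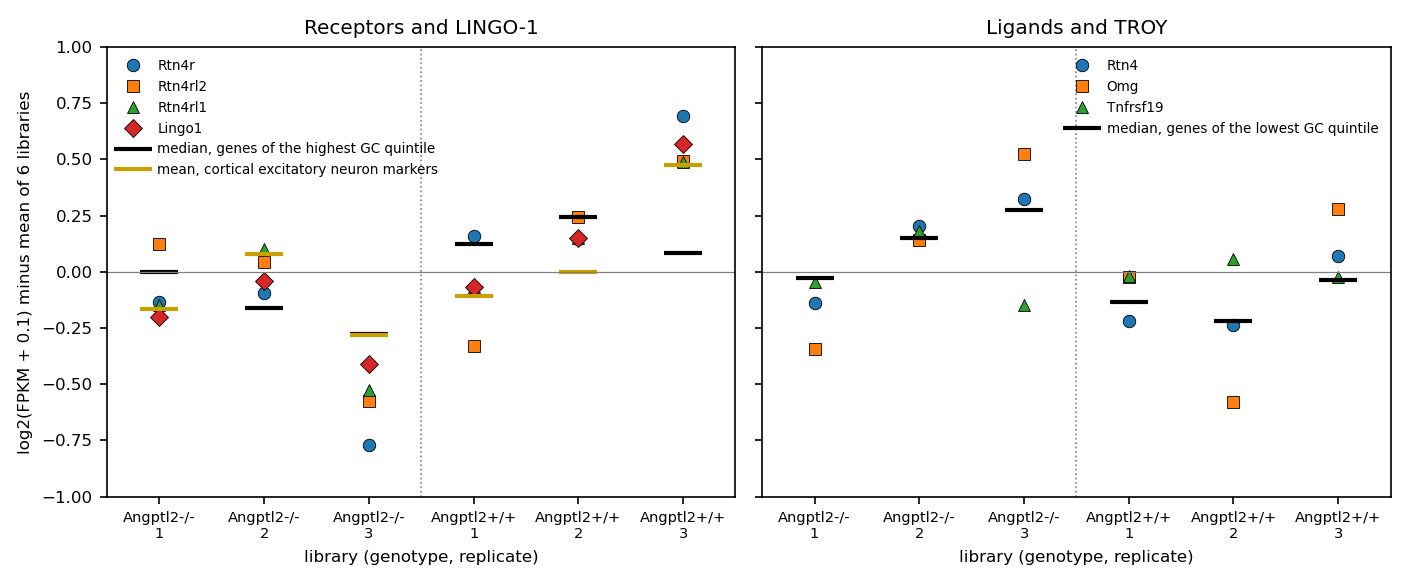
Deviation of log2(FPKM + 0.1) from its mean over the 6 libraries, for the receptors and Lingo1 (left) and for Rtn4, Omg and Tnfrsf19 (right), in Angptl2-/- libraries 1 to 3 and Angptl2+/+ libraries 1 to 3. Black bars are the median of all tested genes in the highest (left) or lowest (right) GC quintile, and the ochre bars the mean of the cortical excitatory neuron markers. Rtn4r, Rtn4rl2, Rtn4rl1 and Lingo1 lie at −0.77 to −0.41 in Angptl2-/- library 3 and at 0.49 to 0.69 in Angptl2+/+ library 3.

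Base composition moved with the genotype difference across the whole table. In the quintile of tested genes with the highest GC content (55.6 to 84.2% in the longest transcript), the median log2 fold change was −0.30 and 88.8% of genes were lower in Angptl2-/- brains. In the quintile with the lowest GC content (18.1 to 43.8%), the median was 0.26 and 12.7% were lower. Rtn4r (62.8% GC), Rtn4rl2 (68.5%), Rtn4rl1 (56.9%), Lingo1 (58.0%) and Ngfr (58.6%) fell in the highest quintile, Omg (41.7%) in the lowest, Rtn4 (46.0%) in the next and Tnfrsf19 (49.6%) in the middle one. Within the highest quintile, 29.6% of genes were lower at an unadjusted p under 0.05, beside Rtn4r and Lingo1 among the 5 members there. Of these 5, Rtn4r, Rtn4rl1 and Lingo1 were below the median of their quintile, Rtn4rl2 was close to it and Ngfr was above it.

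After each library was corrected for GC content, all 8 members overlapped between genotypes. Rtn4r had a corrected log2 fold change of −0.24 (SE 0.22, limma adjusted p = 0.825), against −0.66 without correction. Lingo1 was at −0.15 and Rtn4rl1 at −0.13, both within their standard errors of 0.19 and 0.20. Rtn4rl2, the member richest in GC, was at 0.32 (SE 0.22). Rtn4 moved to 0.14 and Omg to −0.02, so the differences of the ligands also shrank. The corrected Rtn4r values still had Angptl2-/- library 3 lowest, at −0.38 from the mean, and Angptl2+/+ library 3 highest, at 0.55. With Angptl2-/- library 3 left out and no GC correction, the Rtn4r log2 fold change was −0.45, and without Angptl2+/+ library 3 it was −0.49.

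**Figure D5:**
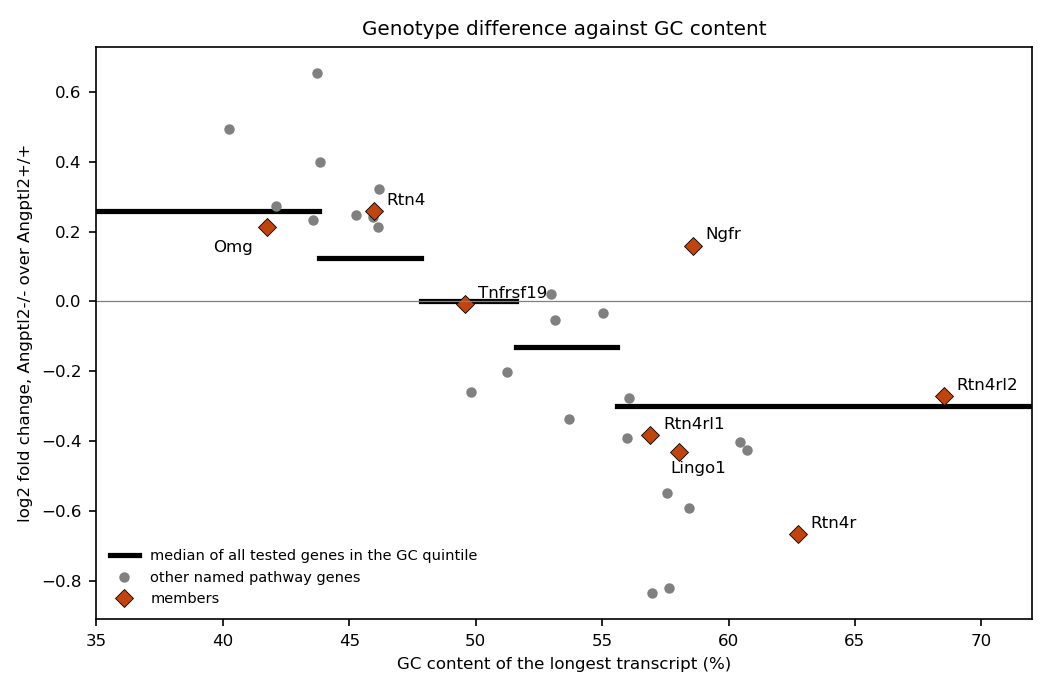
Log2 fold change, Angptl2-/- over Angptl2+/+, against the GC content (%) of the longest transcript for the 8 members (orange diamonds) and the other named genes of the pathway lists (grey points). Black bars are the medians of all tested genes in each quintile of GC content, with the outer quintiles running beyond the axis. The medians go from 0.26 in the lowest quintile to −0.30 in the highest, where Rtn4r lies at −0.66.

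For each member, the 3 protein-coding genes with the most similar course over the 6 libraries were taken from 7238 genes with a mean of at least 5 FPKM (7239 for Ngfr), by the root mean square difference of centred log2 values. Rtn4r was nearest to Plekho1 (0.103), Zbtb16 (0.117) and Shank1 (0.124), of which Shank1 encodes a scaffold of the postsynaptic density. Lingo1 was nearest to Cacna1a (0.0382), the pore of the P/Q-type calcium channel, Tspoap1 (0.0461), which links that channel to the release site, and Dab2ip (0.0490). Rtn4rl1 ran with Plekhg5 (0.0681), Nuak1 (0.0703) and Plk3 (0.0739), and Rtn4rl2 with Dusp14 (0.0782), Akap8l (0.105) and Lrrc75a (0.108). Among the ligands, Rtn4 had 593 genes within 0.1, led by Atp6v1h (0.0192), Zc2hc1a (0.0239) and Vps4b (0.0240), while Omg had 2, and Crot (0.0965) and Calb1 (0.103) were among its nearest. Ngfr had no close partner among the genes searched, the nearest being Baiap3 (0.399), Hap1 (0.439) and Gpx3 (0.488). The cholinergic genes set beside it above were too low for this search, Slc18a3 and Slc5a7 averaging 1.81 and 1.67 FPKM. Tnfrsf19, being nearly flat, had 233 genes within 0.1, led by Arfgap3 (0.0383), Thoc5 (0.0419) and the microglial receptor gene Cx3cr1 (0.0467). With 6 libraries that differ in GC response, such likeness is a description and says nothing of shared control.

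Other ligands and receptors of the system were examined as a list of 20 genes, of which 16 were tested. None passed the limma adjusted p, 5 were higher and 11 lower, 3 of the lower ones at an unadjusted p under 0.05, and the median log2 fold change was −0.18 beside −0.0043 over all tested genes. Apart from Mag, the genes with the smallest p were Cntn2, an axonal adhesion protein (−0.39), and Crtac1, a secreted antagonist of the Nogo receptor also called LOTUS (−0.28). Crtac1 was at 22.7, 22.1 and 22.1 FPKM in Angptl2-/- and at 28.0, 29.2 and 24.2 FPKM in Angptl2+/+ libraries. The genotypes did not overlap, with Angptl2-/- lower, a pattern that 11.8% of all tested genes showed. Olfm1, a secreted glycoprotein that binds NgR1, was the most abundant of the list, at 227 to 279 FPKM in Angptl2-/- and 217 to 329 FPKM in Angptl2+/+ libraries. Pirb, the other receptor of the 3 myelin ligands, was too low to be tested, with 1 to 5 fragments in Angptl2-/- and 5 to 7 in Angptl2+/+ libraries.

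The other reticulons, LINGO proteins and proteins that shape the endoplasmic reticulum with them followed Rtn4 in direction for the most part. Of 9 genes, 8 were tested, 6 of them higher and 2 lower. The median was 0.19, and 0.11 after GC correction. At an unadjusted p under 0.05, 1 of the 8 was lower, beside 9.12% of all tested genes. It was Rtn2 (log2 fold change −0.26, limma adjusted p = 0.287). Rtn3, the most abundant reticulon gene here, was at 341, 388 and 450 FPKM in Angptl2-/- and at 322, 303 and 369 FPKM in Angptl2+/+ libraries. Its GC content of 45.9% was close to that of Rtn4, and its log2 fold change of 0.24 too. Reep5 and Atl1, which bend and fuse tubules of the endoplasmic reticulum, were at 0.21 and 0.25.

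Downstream of the receptors, all 20 genes of RhoA signalling were tested, 9 higher and 11 lower, with a median of −0.04. At an unadjusted p under 0.05, 1 of 20 (Rock1) was higher and 2 (Limk1 and Arhgef1) were lower, shares near those over all tested genes (7.09% and 9.12%). Limk1, the kinase that inactivates cofilin, was at 9.17, 7.67 and 6.92 FPKM in Angptl2-/- and at 12.4, 11.3 and 10.96 FPKM in Angptl2+/+ libraries (log2 fold change −0.55, limma adjusted p = 0.273). Rock1, the kinase that RhoA activates, was at 3.71, 4.59 and 5.19 FPKM in Angptl2-/- and at 3.14, 2.73 and 3.59 FPKM in Angptl2+/+ libraries (0.49, limma adjusted p = 0.274). Neither passed, and the GC content was 57.6% for Limk1 and 40.2% for Rock1. Arhgef1, an activator of RhoA, had a log2 fold change of −0.40 at 60.5% GC, and Cfl1, the cofilin gene and the most abundant of the list, of −0.20.

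Of 20 neurotrophins and partners of p75, 19 were tested, 13 higher and 6 lower, with a median of 0.07. Adam10, a protease that sheds membrane proteins, and Ntrk3, the receptor of neurotrophin-3, were higher at an unadjusted p under 0.05 (log2 fold changes 0.27 and 0.23), and Aph1a, a subunit of gamma-secretase, was lower (−0.34). These 2 and 1 of 19 lie near the 7.09% and 9.12% of all tested genes. Their limma adjusted p-values were 0.29, 0.308 and 0.295. Maged1, a p75-binding protein and the most abundant of the list, was at 0.02.

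The remaining binding partners carry sugar chains. All 10 genes of chondroitin sulphate proteoglycans and their linkers were tested, 3 higher and 7 lower. Their median was −0.21, and 0.0021 after GC correction. Hapln4, a link protein of perineuronal nets, was at 9.04, 10.6 and 10.8 FPKM in Angptl2-/- and at 19.3, 13.1 and 23.4 FPKM in Angptl2+/+ libraries (log2 fold change −0.83, limma adjusted p = 0.273). Bcan, the brevican core protein, was at −0.43 and Vcan, the versican core protein, at 0.65, each without overlap between genotypes. Of all tested genes, 11.8% lay wholly lower and 10.7% wholly higher in Angptl2-/- libraries. Of 12 genes of ganglioside synthesis, whose products bind MAG, 5 were higher and 7 lower. Their median was −0.09, and 0.04 after GC correction. St3gal3, a sialyltransferase that adds terminal sialic acid, was at 12.3, 11.4 and 8.67 FPKM in Angptl2-/- and at 15.6, 15.7 and 17.1 FPKM in Angptl2+/+ libraries (log2 fold change −0.59, limma adjusted p = 0.273). St8sia3 and B4galt6, lower in GC at 43.9 and 46.2% against 58.5% for St3gal3, were at 0.40 and 0.32, and St3gal5, the most abundant, at −0.05.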

How the data were processed

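Total RNA of brain was sequenced as 150 bp paired-end Illumina reads, and the authors deposited 1 FPKM value per gene and library. The submitters' processing notes name Bowtie 0.12.2 and mm8, and how fragments were counted, with which annotation and strand, is not given in the sources used here. Of the 54532 identifiers, 54495 are in GENCODE M21 (GRCm38), whose exon lengths turned FPKM into whole fragments, so its symbols and coordinates were used. No 2 libraries were copies of each other (chi-square per degree of freedom of at least 15.8).

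Groups came from the genotype label. log2(FPKM + 0.1) of the 14862 genes with a mean of at least 0.5 FPKM was tested with limma 3.58.1 in R 4.3.3 (empirical Bayes, intensity trend, two-sided), adjusted over these genes by Benjamini-Hochberg at a threshold of 0.05. A fold change on this scale understates that of low genes. Exact permutation tests (two-sided) used all 20 placements of 3 libraries among 6, computed in Python 3.11.15 with numpy 2.4.6. GC correction was a loess fit per library (span 0.3) on the GC content of the longest transcript. The code was tested on simulated data with a smaller spread than that of these libraries, which shows nothing of the power here.

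The genes named are the members, Angptl2 and Mag, the most abundant gene and the 3 of smallest p in each pathway list, the 3 nearest in course to each member, and the 2 most abundant of a marker list, other than those said to be chosen later and some that are not reported here. Members and lists were chosen with earlier results of these data known. Alternatives were other pseudocounts, filters, scalings and moderations, voom, GC and length correction, the replicate number as a block and leaving out each library. A term for the Xist level was added after seeing the data.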

Additional observations from a re-analysis of the deposited data

How the results depend on the processing

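No member passed the limma adjusted p under any of 20 alternatives. Rtn4r stayed between −0.78 and −0.24 on the log2 scale (adjusted p 0.198 to 0.825), Lingo1 between −0.57 and −0.15, Rtn4rl1 between −0.53 and −0.13 and Rtn4 between 0.14 and 0.39. GC correction turned Rtn4rl2 to 0.32 (0.3173) and Omg to −0.02 (−0.0229), and took the genes at an unadjusted p under 0.05 to 470 higher and 563 lower. Tnfrsf19 was positive under quantile normalization (0.0333), rescaling without mitochondrial and haemoglobin genes (0.0067), length correction (0.0049) and the Xist term (0.0454). With 1 library left out, Tnfrsf19 ranged from −0.0994 to 0.0635, Ngfr from −0.5801 to 1.0382, Omg from −0.0223 to 0.4381, and the genes at an unadjusted p under 0.05 from 466 to 1368 higher and from 800 to 1662 lower. These counts were 484 and 800 without Angptl2-/- replicate 2, 466 and 835 without Angptl2-/- replicate 3, 605 and 1007 without Angptl2+/+ replicate 1, and 676 and 883 without Angptl2+/+ replicate 2. Without Angptl2-/- replicate 1 or Angptl2+/+ replicate 3, Ngfr was negative (−0.3592 and −0.5801). The genes called lower ranged from 0 to 1, the 1 being Gapdh without Angptl2+/+ replicate 1 (adjusted p 0.00116). The Xist term called 1 gene higher (Ttr, adjusted p 0.000989), with 613 genes higher at an unadjusted p under 0.05. Quantile normalization split these genes into 1325 higher and 1150 lower. Ttr and Gapdh are named after their values were seen, and the causes were not tested.

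With the replicate number as a block, 1 gene was called higher (Ttr, adjusted p 0.0233), and Rtn4r kept a log2 fold change of −0.66 (adjusted p 0.27). Same-numbered libraries deviated together only weakly (correlations 0.04, −0.07 and 0.16 for numbers 1, 2 and 3), and only number 3 was its own best partner. With 3 libraries a group, these values cannot show whether same-numbered libraries shared more than a number.

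The depth of 17127263 fragments or more left counting errors of at most 4.01% for members other than Ngfr and of 6.47 to 22.9% for Ngfr. Other limits are the 3 libraries a group, the trend with GC content, the unequal sex and the dissection, which is not stated.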
